A study of Mus musculus with 4 samples.

Results

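The heat shock and unfolded protein response genes described here are 44 named mouse genes for molecular chaperones, their cochaperones and the transcription factors that control them. They were given as a list of names, chosen with earlier results of these data known. Shares of these genes set beside shares of all genes are therefore a description and not a test. Each was represented by the brightest probe set that the array annotation assigns to that gene and to no other, which left 39 of the 44 genes measured, among 30701 genes in all. Of the 5 others, Hspa1b, Dnaja1 and Pdia4 had probe sets shared with another gene, and no probe set was used here for Hsp90ab1 and Hsf1. By the compartment of their products, the 39 measured genes fall into 20 cytosolic, 3 mitochondrial and 11 endoplasmic reticulum (ER) genes and 5 transcription factors.

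RNA came from whole lung of adult mice matched for age and killed by a cervical method, with 2 arrays from mice labelled SCD (sickle cell disease, strain label SCD Tg) and 2 arrays from WT mice (strain label C57/BL6). Sickle cell disease is an inherited disorder of haemoglobin in which red cells stiffen, break down and block small vessels, the lung among the organs affected. Which SCD line was used, with its transgenes and background strain, is not given in the sources used here, nor are sex or batch, so that SCD genotype and strain background cannot be told apart. The comparison asked which genes differ between SCD and WT lung.

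Chaperones bind unfolded proteins, keep them from clumping and help them reach their folded shape. In the cytosol and nucleus, heat shock factor 1 switches on chaperone genes through heat shock elements in DNA when unfolded protein builds up. In the ER, where secreted and membrane proteins fold, the sensors IRE1, PERK and ATF6 start the unfolded protein response, which acts through XBP1, ATF4 and the cleaved form of ATF6 and raises ER chaperones, several of them through ER stress elements.

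The values are log2 expression values, and each difference below is SCD minus WT on that scale ± its standard error from limma, with n = 2 arrays in each group. A gene is said to have risen or fallen where limma's adjusted p, corrected over all 30701 genes, was under 0.05. The series text counts 2 lungs for each genetic group without tying each array to its own mouse, and the p-values therefore measure only the spread between these samples. The lung label held on its defining markers: Sftpc, the surfactant protein C gene of alveolar type 2 cells, read 19.93 on every array, the highest value in the table, and none of 8 alveolar epithelial and 6 endothelial markers had a WT mean below the median of the negative control probe sets. The median over all transcript clusters lay between 5.59 and 5.65 on the 4 arrays. The positive control probe sets had medians of 10.26 and 10.29 on the SCD arrays and of 10.01 and 10.15 on the WT arrays, a shift of 0.20 between the groups. The negative control probe sets lay lower on the SCD arrays, with medians of 6.308 and 6.275, against 6.478 and 6.473 on the WT arrays. The shift between the groups thus differed with the control set, whereas the shift taken off below was the same for every gene.

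Among the 39 measured genes, 15 rose in SCD lung, 0 fell and 24 did not pass limma's test. Over all genes, 2.46% were called higher and 0.635% were called lower. At an unadjusted p under 0.05, 27 of the 39 were higher and 0 lower, where 10.6% of all genes were higher and 6.07% lower. The 15 genes that rose were Hsph1, Hspa4l, Hsp90aa1, Chordc1, Stip1, Ahsa1 and Hspb1 of the cytosol, Hspd1 and Hspe1 of mitochondria, Hspa5, Hsp90b1, Dnajc3, Calr and Herpud1 of the ER, and the transcription factor gene Xbp1. The difference was above 0 for all 39 genes, against 50.3% of all genes, with a median of 0.49 and a range from 0.02 to 2.11. Both SCD arrays lay above both WT arrays for 34 genes, against 25.3% of all genes. The groups overlapped for the other 5, which were Hspb6, Hsf2, Atf4, Ddit3 and Atf3. In whole lung, more cells of a type and more RNA per cell cannot be told apart, and neither can fewer cells and less RNA per cell.

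Array by array, the 4 genes with differences of 1 or more were Hsph1, Stip1, Hspa4l and Hspa1a, all of the cytosol. Of these, Hspa1a did not pass. Its values on the SCD arrays and on the WT arrays all lay below the negative control median of the same array, so that the size of its difference is uncertain. The SCD arrays lay close together, with a median gap of 0.05 between them over the 39 genes, against a median gap of 0.10 between the WT arrays. For 27 of the 39 genes the WT arrays were the farther apart of the groups, which the plot of values by array shows for Cacybp, Sdf2l1 and Atf3. The same held for 17676 of all 30701 genes and for 4850 of the 7675 genes with the highest mean level. Over all genes the gaps were 0.12 between the SCD arrays and 0.16 between the WT arrays.

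**Figure D1:**
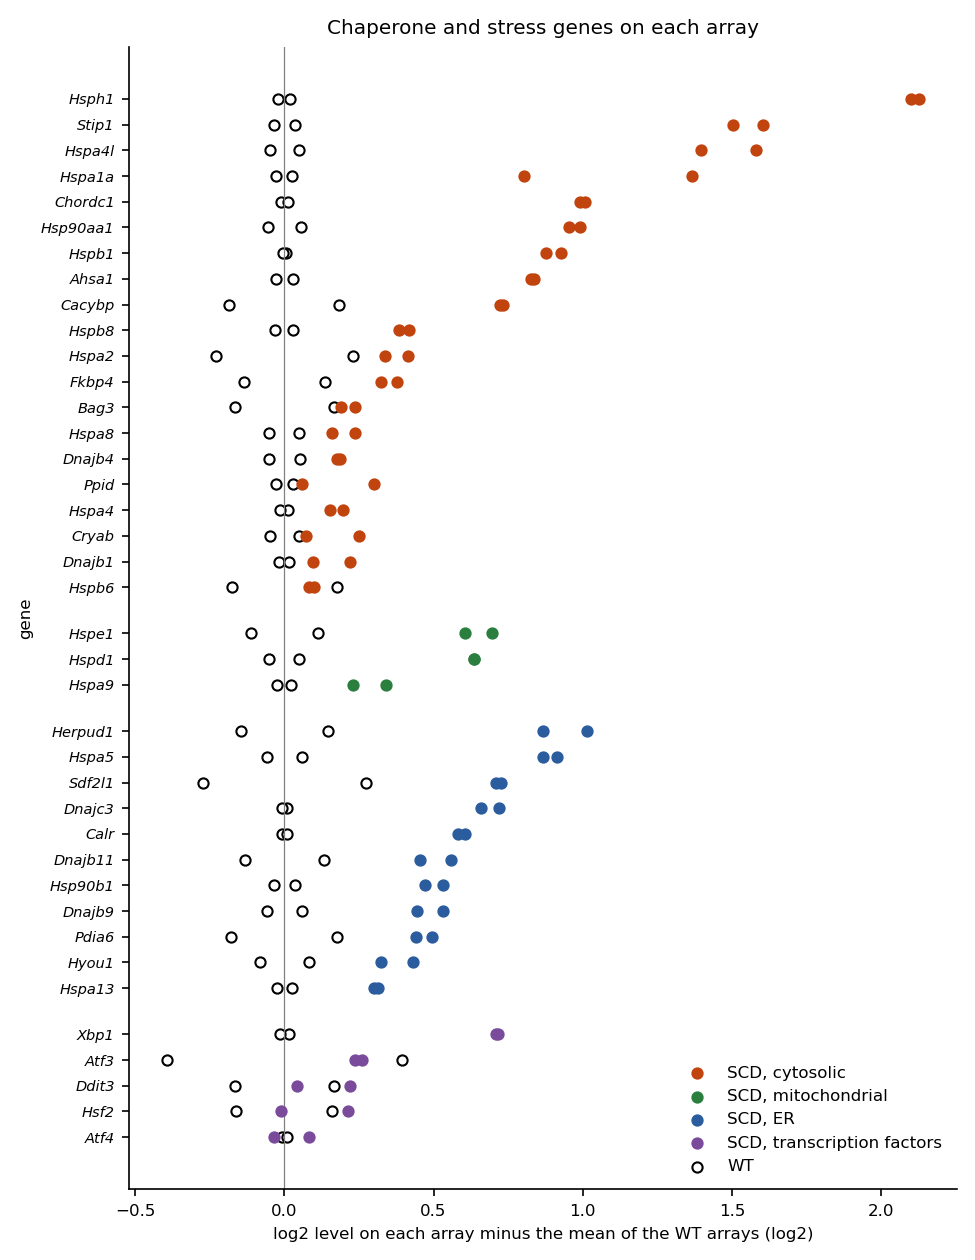
Each row is a gene, and the horizontal axis gives the log2 value on each array minus the mean of the WT arrays. Filled points are the 2 SCD arrays, coloured by compartment, and open circles are the 2 WT arrays; the SCD points of Hsph1 lie farthest to the right, and the 5 genes whose groups overlap are Hspb6, Atf3, Ddit3, Hsf2 and Atf4.

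Hsph1 had the largest difference of the 39 genes. It encodes HSP105, a member of the HSP110 family that recharges HSP70 chaperones by exchanging their nucleotide. Its values were 12.13 and 12.10 on the SCD arrays, against 9.98 and 10.02 on the WT arrays. The groups lay far apart, and the arrays of each group were nearly level. The rise was 2.11 ± 0.08, or 4.33-fold (limma, adjusted p = 0.00271). Hspa4l, another gene of the HSP110 family, read 11.28 and 11.47 on the SCD arrays, against 9.84 and 9.94 on the WT arrays. Both SCD arrays were well above both WT arrays, and the rise was 1.49 ± 0.10, or 2.80-fold (limma, adjusted p = 0.00781).

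The third HSP110 gene, Hspa4, did not pass. Its values were 13.05 and 13.01 on the SCD arrays, against 12.87 and 12.84 on the WT arrays, a difference of 0.17 ± 0.07 (limma, adjusted p = 0.308). The groups did not overlap, but they lay close together. Hspa8, which encodes the constitutive HSP70 of the cytosol, read 19.90 and 19.82 on the SCD arrays, against 19.72 and 19.61 on the WT arrays. The difference of 0.20 ± 0.05 did not pass (limma, adjusted p = 0.16), and these values lay close to the upper end of the table's range, 19.93, where differences have little room.

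Hspa1a, an HSP70 gene that is strongly inducible by heat, read 5.61 and 6.18 on the SCD arrays, against 4.79 and 4.84 on the WT arrays. Both SCD arrays were higher, but they also differed from each other, and the difference of 1.08 ± 0.21, or 2.12-fold, did not pass (limma, adjusted p = 0.0749). The WT mean of Hspa1a, 4.81, lay below the WT median of the negative control probe sets, 6.48. Its SCD values also lay below the medians of these control probe sets on the SCD arrays, 6.308 and 6.275. A probe set shared by Hspa1a and its near-identical neighbour Hspa1b read 6.51 and 7.16 on the SCD arrays, against 5.57 and 5.36 on the WT arrays. Its difference of 1.37 ± 0.26 did not pass in the limma fit over every transcript cluster (adjusted p = 0.106). Hspa2, an HSP70 gene best known from the testis, read 5.61 and 5.53 on the SCD arrays, against 4.97 and 5.42 on the WT arrays, with a difference of 0.37 ± 0.18 (limma, adjusted p = 0.398).

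HSP90 matures signalling proteins together with a set of cochaperones. Of the 7 measured genes for HSP90 and these partners, 4 rose, and the median difference over the 7 was 0.83. Stip1 encodes HOP, the adaptor that hands client proteins over from HSP70 to HSP90. It read 11.71 and 11.81 on the SCD arrays, against 10.24 and 10.17 on the WT arrays. The groups were widely separated, and the rise was 1.55 ± 0.09, or 2.93-fold (limma, adjusted p = 0.00533). Chordc1 encodes morgana, an HSP90 cochaperone. It read 12.18 and 12.17 on the SCD arrays, against 11.16 and 11.19 on the WT arrays, so that the 4 values formed 2 tight pairs. The rise was 1.00 ± 0.08, or 2.00-fold (limma, adjusted p = 0.00781).

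Hsp90aa1, the stress-inducible cytosolic HSP90 gene, read 15.16 and 15.20 on the SCD arrays, against 14.15 and 14.26 on the WT arrays. Both SCD arrays were higher by about the same amount, and the rise was 0.97 ± 0.07, or 1.96-fold (limma, adjusted p = 0.00781). Ahsa1 encodes AHA1, which speeds up the ATPase of HSP90. It read 10.21 and 10.22 on the SCD arrays, against 9.41 and 9.36 on the WT arrays, with a rise of 0.83 ± 0.09, or 1.78-fold (limma, adjusted p = 0.0151).

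The other 3 HSP90 cochaperone genes did not pass. Cacybp, the calcyclin-binding protein gene, read 12.14 and 12.15 on the SCD arrays, against 11.23 and 11.60 on the WT arrays. Its WT arrays stood apart from each other, and its difference of 0.73 ± 0.14 missed the threshold (limma, adjusted p = 0.072). The immunophilin genes Fkbp4 and Ppid, whose products bind HSP90 in steroid receptor complexes, differed by 0.35 ± 0.12 and 0.18 ± 0.11.

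J proteins deliver clients to HSP70, and BAG3 links HSP70 to autophagy. Of the cytosolic J proteins and BAG3, none of the 3 measured genes passed limma's test, 0 of them had an unadjusted p under 0.05, and their median difference was 0.18. Dnajb1, the HSP40 gene that heat shock induces, read 6.72 and 6.60 on the SCD arrays, against 6.48 and 6.52 on the WT arrays, with a difference of 0.16 ± 0.11 (limma, adjusted p = 0.557). The SCD arrays were only slightly above the WT arrays. Dnajb4 differed by 0.18 ± 0.10 and Bag3 by 0.21 ± 0.14. Dnaja1 had no probe set of its own. The one it shares with the microRNA gene Mir207 read 12.86 and 13.03 on the SCD arrays and 12.50 on both WT arrays (difference 0.44 ± 0.09, limma over every transcript cluster, adjusted p = 0.122).

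Small heat shock proteins hold unfolding proteins without using ATP. Of their 4 measured genes, Hspb1 alone passed. Hspb1, which encodes HSP25 in the mouse, read 8.02 and 8.07 on the SCD arrays, against 7.14 and 7.13 on the WT arrays. The pairs were tight and far apart, and the rise was 0.90 ± 0.10, or 1.87-fold (limma, adjusted p = 0.0166). Hspb8, the partner of BAG3, read 8.66 and 8.69 on the SCD arrays, against 8.25 and 8.31 on the WT arrays, with a difference of 0.40 ± 0.09 (limma, adjusted p = 0.12). Cryab, the alpha B-crystallin gene, differed by 0.16 ± 0.10. Hspb6, a small heat shock protein gene of muscle, differed by 0.09 ± 0.15, and its WT arrays, at 5.36 and 5.71, enclosed its SCD arrays.

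Over the whole cytosolic group, 7 of 20 measured genes rose and the median difference was 0.39, with a range from 0.09 to 2.11. With the shift of the positive controls taken off the SCD arrays, the median was 0.19. Both SCD arrays exceeded both WT arrays for 19 of the 20, against 25.3% of all genes. Among the 7675 genes with the highest mean level, the share was 40.0%.

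In mitochondria, both parts of the chaperonin rose. Hspd1 encodes HSP60, which forms the folding chamber, and Hspe1 encodes HSP10, its lid. Hspd1 read 12.29 on both SCD arrays, against 11.71 and 11.61 on the WT arrays, with a rise of 0.64 ± 0.08, or 1.55-fold (limma, adjusted p = 0.025). Hspe1 read 12.51 and 12.42 on the SCD arrays, against 11.70 and 11.92 on the WT arrays, with a rise of 0.65 ± 0.10, or 1.57-fold (limma, adjusted p = 0.0489). Both genes were higher on every SCD array, by nearly the same amount. Hspa9, the mitochondrial HSP70 called mortalin, read 10.76 and 10.87 on the SCD arrays, against 10.56 and 10.51 on the WT arrays, and its difference of 0.29 ± 0.09 did not pass (limma, adjusted p = 0.202). The calls of Hspd1 and Hspe1 were lost without the intensity trend, after repeated quantile normalization and when the shift of the positive controls was taken off, with adjusted p of up to 0.0676 for Hspd1 and up to 0.095 for Hspe1 (limma).

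Promoter windows of the RefSeq annotation, from 250 bases before to 50 bases after the annotated start on GRCm38.p6, were found for 35 of the 44 genes, the unmeasured ones included. A heat shock element of 3 units was searched on both strands as the units GAA, TTC and GAA, or TTC, GAA and TTC, each unit 2 free bases from the next. It was found in 0.603% of 32851 windows and in the windows of 0.662% of genes. Of the 35 genes, 4 held it, namely Hsph1, Chordc1, Hspd1 and Hspe1, and all 4 rose. These were 4 of the 14 genes that rose and had a window. Stip1, Hspa4l and Ahsa1 rose without it, and also without the shorter element described below. Outside the 44, the window of Dnajb6, a J protein gene of the cytosol, also held it, and Dnajb6 differed by 0.01 ± 0.09 (limma, adjusted p = 0.972). None of the 18 genes with a window that did not pass held it. The windows are shown because they carry these matches, with the matching bases in capitals and the sequence 5′ to 3′ on the gene's strand: Hsph1 at chr5:149636266-149636565 (minus strand), with a match from base 15 to base 27 after the start, Chordc1 at chr9:18292017-18292316 (plus strand), with 3 overlapping matches from -4 to 18, and Hspe1 at chr1:55087898-55088197 (plus strand), with 2 overlapping matches from -89 to -72.
Hsph1: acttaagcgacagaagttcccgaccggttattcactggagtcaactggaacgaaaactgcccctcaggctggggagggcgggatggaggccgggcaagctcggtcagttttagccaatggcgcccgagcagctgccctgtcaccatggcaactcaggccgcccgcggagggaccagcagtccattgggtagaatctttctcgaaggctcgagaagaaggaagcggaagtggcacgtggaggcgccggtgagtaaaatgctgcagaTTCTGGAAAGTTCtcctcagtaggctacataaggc
Chordc1: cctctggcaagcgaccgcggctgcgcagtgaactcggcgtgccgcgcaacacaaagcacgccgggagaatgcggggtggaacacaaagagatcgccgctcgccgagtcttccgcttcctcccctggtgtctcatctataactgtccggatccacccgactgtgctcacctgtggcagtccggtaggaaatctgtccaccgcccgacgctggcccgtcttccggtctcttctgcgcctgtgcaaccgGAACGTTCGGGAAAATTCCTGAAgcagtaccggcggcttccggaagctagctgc
Hspe1: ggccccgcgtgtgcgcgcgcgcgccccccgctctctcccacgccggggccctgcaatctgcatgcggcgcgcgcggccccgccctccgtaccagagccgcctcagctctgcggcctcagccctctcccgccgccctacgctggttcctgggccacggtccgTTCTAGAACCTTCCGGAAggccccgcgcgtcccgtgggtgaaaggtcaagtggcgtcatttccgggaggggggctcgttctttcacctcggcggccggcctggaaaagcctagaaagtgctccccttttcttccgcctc

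Hspd1 and Hspe1 lie head to head on chromosome 1. The Hspd1 window runs on the opposite strand and shares 285 bases with the Hspe1 window shown, so that both genes were counted from the same matching bases. A shorter element of 2 units, GAANNTTC or TTCNNGAA, which is part of the longer one, was in 15.1% of windows and in those of 17.0% of genes. It was in 13 of the 35 genes, 11 of them among the 18 cytosolic genes with a window, and in 0 of the 10 ER genes with a window. Among genes that rose, 5 of 14 with a window held the shorter element, and among measured genes that did not pass, 6 of 18 held it, namely Bag3, Dnajb4, Fkbp4, Hspa1a, Hspb6 and Hspb8. A match describes these letters only and is not shown to be a bound site.

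**Figure D2:**
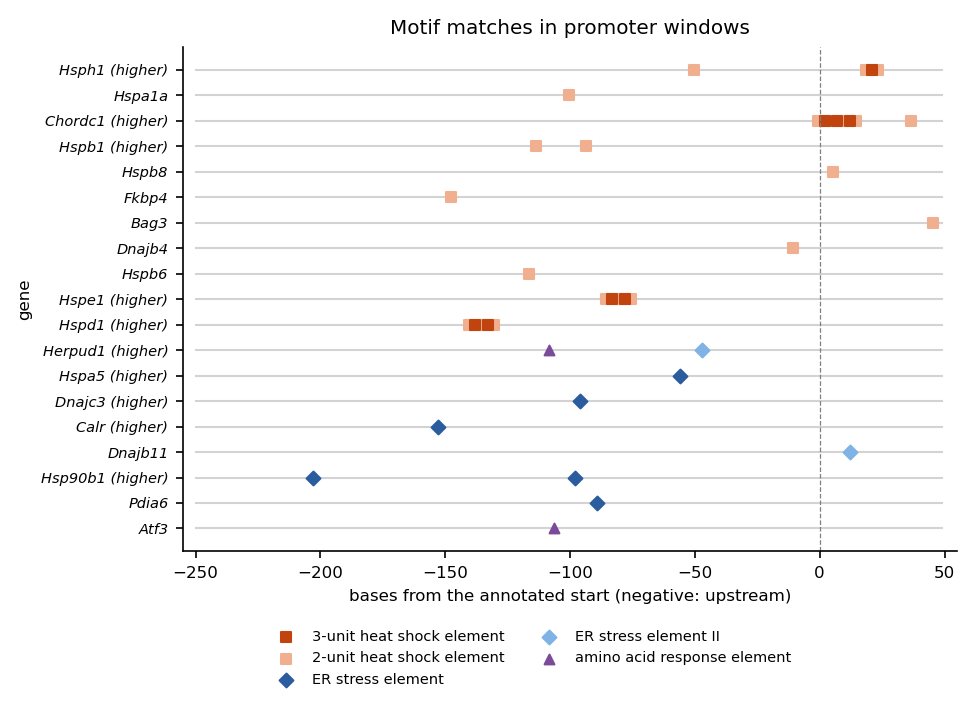
Each line is the promoter window of a measured gene with at least 1 match, the horizontal axis gives the distance in bases from the annotated start, and each symbol marks the middle of a match; "higher" marks genes that rose in SCD. Heat shock elements of 3 units lie in the windows of Hsph1, Chordc1, Hspe1 and Hspd1, and the ER stress element lies in those of Hspa5, Dnajc3, Calr, Hsp90b1 and Pdia6.

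Of the 11 measured ER genes, 5 rose and 6 did not pass. Both SCD arrays lay above both WT arrays for all 11, against 25.3% of all genes and 40.0% of the 7675 brightest. The median difference of the 11 was 0.51, with a range from 0.31 to 0.94, and 0.31 with the shift of the positive controls taken off. Herpud1, which encodes an ER membrane protein that serves the degradation of misfolded proteins, read 10.75 and 10.89 on the SCD arrays, against 9.74 and 10.03 on the WT arrays. Both SCD arrays were clearly higher, although the WT arrays differed from each other, and the rise was 0.94 ± 0.13, or 1.92-fold (limma, adjusted p = 0.0334). Hspa5 encodes BiP, the HSP70 of the ER and the classic readout of the unfolded protein response. It read 12.08 and 12.04 on the SCD arrays, against 11.11 and 11.23 on the WT arrays. The rise was 0.89 ± 0.08, or 1.85-fold (limma, adjusted p = 0.0116).

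Dnajc3 encodes p58IPK, a J protein of the ER that works with BiP. It read 13.78 and 13.71 on the SCD arrays, against 13.07 and 13.05 on the WT arrays, with a rise of 0.69 ± 0.07, or 1.61-fold (limma, adjusted p = 0.0127). Calr, the gene of calreticulin, which binds calcium and folds glycoproteins, read 12.23 and 12.25 on the SCD arrays, against 11.64 and 11.65 on the WT arrays. The arrays of each group were nearly level, and the rise was 0.59 ± 0.07, or 1.51-fold (limma, adjusted p = 0.0243). Hsp90b1, which encodes GRP94, the HSP90 of the ER, read 17.16 and 17.22 on the SCD arrays, against 16.72 and 16.65 on the WT arrays, with a rise of 0.50 ± 0.05, or 1.42-fold (limma, adjusted p = 0.0168). Of these 5 ER genes, Hspa5 alone passed in all 6 settings other than leaving an array out. Without the intensity trend, limma's adjusted p was 0.0582 for Herpud1, 0.0527 for Dnajc3, 0.0701 for Calr and 0.108 for Hsp90b1.

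The ER genes that did not pass were Sdf2l1, Dnajb11, Dnajb9, Pdia6, Hyou1 and Hspa13. Sdf2l1, which encodes a cofactor of BiP, read 7.32 and 7.31 on the SCD arrays, against 6.87 and 6.33 on the WT arrays. The SCD arrays were level and the WT arrays far apart, and the difference of 0.72 ± 0.20 missed the threshold (limma, adjusted p = 0.165). Dnajb9 and Dnajb11, which encode the J proteins ERdj4 and ERdj3, differed by 0.49 ± 0.09 and 0.51 ± 0.12. The disulfide isomerase gene Pdia6 differed by 0.47 ± 0.14, Hyou1, the HSP110 of the ER, by 0.38 ± 0.11, and Hspa13, an HSP70 of the microsomes, by 0.31 ± 0.10. Limma's adjusted p for these 5 ran from 0.0768 for Dnajb9 to 0.211 for Hspa13. Pdia4, another disulfide isomerase gene, shares its probe set with Mir704. That probe set read 11.24 and 11.34 on the SCD arrays, against 10.46 and 10.47 on the WT arrays (difference 0.83 ± 0.10, limma over every transcript cluster, adjusted p = 0.0439), where 0.914% of transcript clusters were called higher.

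The ER stress element, searched as CCAAT and CCACG with 9 free bases between them on either strand, was in 0.119% of all promoter windows and in those of 0.137% of genes. It was found in 5 of the 10 ER genes with a window, Calr, Dnajc3, Hsp90b1, Hspa5 and Pdia6, and in 0 of the 18 cytosolic ones. Of these 5, Pdia6 did not pass the test and the other 4 rose. ER stress element II was searched as ATTGG and CCACG with 1 free base between them on either strand. It was in 0.0365% of windows and in those of 0.0444% of genes. Of the listed heat shock and unfolded protein response genes, Dnajb11, which did not pass, and Herpud1, which rose, held it. The windows of the 5 ER genes that rose are shown for these elements, again 5′ to 3′ on the gene's strand with matches in capitals: Hspa5 at chr2:34771840-34772139 (plus strand), Hsp90b1 at chr10:86705395-86705694 (minus strand, 2 matches), Dnajc3 at chr14:118937682-118937981 (plus strand), Calr at chr8:84846882-84847181 (minus strand) and Herpud1 at chr8:94386179-94386478 (plus strand, ER stress element II).
Hspa5: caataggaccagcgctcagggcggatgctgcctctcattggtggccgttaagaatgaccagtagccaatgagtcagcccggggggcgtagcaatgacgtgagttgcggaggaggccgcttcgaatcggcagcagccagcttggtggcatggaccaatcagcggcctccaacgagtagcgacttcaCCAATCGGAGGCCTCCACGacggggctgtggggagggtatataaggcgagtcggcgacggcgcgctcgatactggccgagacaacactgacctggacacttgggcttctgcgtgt
Hsp90b1: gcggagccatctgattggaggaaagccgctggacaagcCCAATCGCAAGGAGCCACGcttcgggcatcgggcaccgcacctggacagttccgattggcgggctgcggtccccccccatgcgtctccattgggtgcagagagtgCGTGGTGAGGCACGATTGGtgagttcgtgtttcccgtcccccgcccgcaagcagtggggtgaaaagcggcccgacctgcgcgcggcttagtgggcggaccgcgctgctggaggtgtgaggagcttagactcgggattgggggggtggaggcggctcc
Dnajc3: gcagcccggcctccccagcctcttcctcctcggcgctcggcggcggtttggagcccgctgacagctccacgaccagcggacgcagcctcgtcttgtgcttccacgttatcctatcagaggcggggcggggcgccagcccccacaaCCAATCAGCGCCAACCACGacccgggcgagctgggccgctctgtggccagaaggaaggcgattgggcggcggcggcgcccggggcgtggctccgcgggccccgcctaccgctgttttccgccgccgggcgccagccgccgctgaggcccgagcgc
Calr: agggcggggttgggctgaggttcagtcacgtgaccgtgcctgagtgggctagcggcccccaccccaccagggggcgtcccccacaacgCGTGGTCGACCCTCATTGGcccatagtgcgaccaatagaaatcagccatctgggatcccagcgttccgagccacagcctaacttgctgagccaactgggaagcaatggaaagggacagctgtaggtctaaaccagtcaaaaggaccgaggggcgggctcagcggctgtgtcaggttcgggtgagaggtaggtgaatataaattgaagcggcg
Herpud1: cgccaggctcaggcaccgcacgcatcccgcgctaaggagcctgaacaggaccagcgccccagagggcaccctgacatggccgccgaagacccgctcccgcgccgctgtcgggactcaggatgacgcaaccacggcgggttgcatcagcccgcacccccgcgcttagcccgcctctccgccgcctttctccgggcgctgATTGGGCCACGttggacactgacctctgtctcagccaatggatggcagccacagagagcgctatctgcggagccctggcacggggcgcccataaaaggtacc

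Read from the start of the gene, the matches lie from -65 to -47 in Hspa5, between -212 and -89 in Hsp90b1, from -105 to -87 in Dnajc3, from -162 to -144 in Calr and from -52 to -42 in Herpud1. Some matches stand on the opposite strand and therefore appear as the reverse complement, as in Calr. The amino acid response element TTGCATCA, through which ATF4 acts, was in 0.895% of windows and in those of 1.03% of genes. Of the listed heat shock and unfolded protein response genes, Atf3 and Herpud1 held it.

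Of the 5 transcription factor genes measured, Xbp1 alone passed. XBP1 is made active by IRE1-dependent splicing of its RNA, which these probe sets were not used to read. Xbp1 read 10.43 on both SCD arrays, against 9.73 and 9.70 on the WT arrays, and the rise was 0.71 ± 0.08, or 1.64-fold (limma, adjusted p = 0.021). The other 4 overlapped between groups. Atf4, the effector of the PERK arm whose protein output is set largely by translation, read 8.47 and 8.59 on the SCD arrays, against 8.50 and 8.52 on the WT arrays (difference 0.02 ± 0.10, limma, adjusted p = 0.938).

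Ddit3, the gene of CHOP, a target of ATF4 tied to cell death, read 9.57 and 9.39 on the SCD arrays, against 9.18 and 9.51 on the WT arrays, with a difference of 0.13 ± 0.15 (limma, adjusted p = 0.734). A second Ddit3 probe set read 9.44 and 9.23 on the SCD arrays, against 8.70 and 8.81 on the WT arrays. There the groups did not overlap, and the difference of 0.58 ± 0.14 did not pass (limma over every transcript cluster, adjusted p = 0.168). Atf3, a stress-induced factor gene, read 6.56 and 6.54 on the SCD arrays, against 6.70 and 5.91 on the WT arrays. Hsf2, a heat shock factor gene, differed by 0.10 ± 0.15.

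Chaperone and stress genes beyond the 44 were taken from a list of 79, of which 75 were measured. Of these, 3 of 75 rose, a share near the 2.46% of all genes called higher, 0 fell and 72 did not pass limma's test. At an unadjusted p under 0.05, 31 were higher and 0 lower, where 10.6% of all genes were higher and 6.07% lower. The difference was above 0 for 59 and below 0 for 16, where 50.3% of all genes were above 0. Both SCD arrays lay above both WT arrays for 46, against 25.3% of all genes. Of the 75, 44 were among the 7675 genes with the highest mean level. Of those 7675 genes, 61.6% had a difference above 0 and 40.0% had both SCD arrays above both WT arrays. The median difference of the 75 was 0.18, with a range from -0.24 to 1.36, against a median of 0.49 for the 39. Both lists were chosen with earlier results of these data known, so that setting them side by side tests nothing. Creld2, an ER gene induced by ER stress, read 10.85 and 10.69 on the SCD arrays, against 9.59 and 9.23 on the WT arrays, and rose by 1.36 ± 0.15, or 2.56-fold (limma, adjusted p = 0.0167). Its promoter window also held the ER stress element, as did those of Canx, Derl3, Ero1b and Syvn1 among the 19 of these other ER genes with a window. Canx, Derl3, Ero1b and Syvn1 did not pass, with differences of 0.23, 0.18, 0.11 and 0.61. Limma's adjusted p for them ran from 0.0599 for Syvn1 to 0.74 for Ero1b.

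St13 encodes HIP, a cochaperone of HSP70. It read 12.11 and 12.08 on the SCD arrays, against 11.31 and 11.28 on the WT arrays, with a rise of 0.80 ± 0.08, or 1.74-fold (limma, adjusted p = 0.0113). Serpinh1 encodes HSP47, the collagen chaperone of the ER. It read 15.73 and 15.76 on the SCD arrays, against 15.21 and 15.19 on the WT arrays, with a rise of 0.55 ± 0.06, or 1.46-fold (limma, adjusted p = 0.0139). That call was lost without the intensity trend, with the mean of the gene's probe sets and after quantile normalization, with limma's adjusted p of up to 0.115. Each of the 3 genes had both SCD arrays above both WT arrays, which adds no support, since they were named because they passed.

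By group, 1 of 32 other cytosolic genes rose, with a median difference of 0.14. None of the measured genes of the CCT chaperonin, which folds actin and tubulin, passed. Cct3 and Cct7 differed by 0.58 ± 0.09 and 0.55 ± 0.09 (limma, adjusted p = 0.0523 and 0.0526), Cct2, Cct5 and Cct4 by 0.48, 0.43 and 0.35, and Tcp1 and Cct8 by 0.04 each. None of 9 other mitochondrial genes passed limma's test, with 2 at an unadjusted p under 0.05, and their median was 0.20. Of 22 other ER genes, 2 rose and the median was 0.27, and the isomerase gene Pdia3 differed by 0.52 ± 0.09 (limma, adjusted p = 0.0539). None of 12 sensors and stress effectors passed, with 3 at an unadjusted p under 0.05 and a median of 0.08. Among these, Ern1, the gene of IRE1, differed by -0.01 ± 0.10, Eif2ak3, the gene of PERK, by 0.10 ± 0.13 and Atf6 by 0.40 ± 0.11. Among genes in this group that ATF4 is known to induce, Asns and Ppp1r15a differed by 0.64 ± 0.18 and 0.51 ± 0.15 (limma, adjusted p = 0.178 and 0.177). Chac1 differed by 0.07 ± 0.12, Nupr1 by 0.01 ± 0.09 and Trib3 by -0.24 ± 0.15. Sesn2, another gene of this group, differed by 0.26 ± 0.11 (limma, adjusted p = 0.344).

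**Figure D3:**
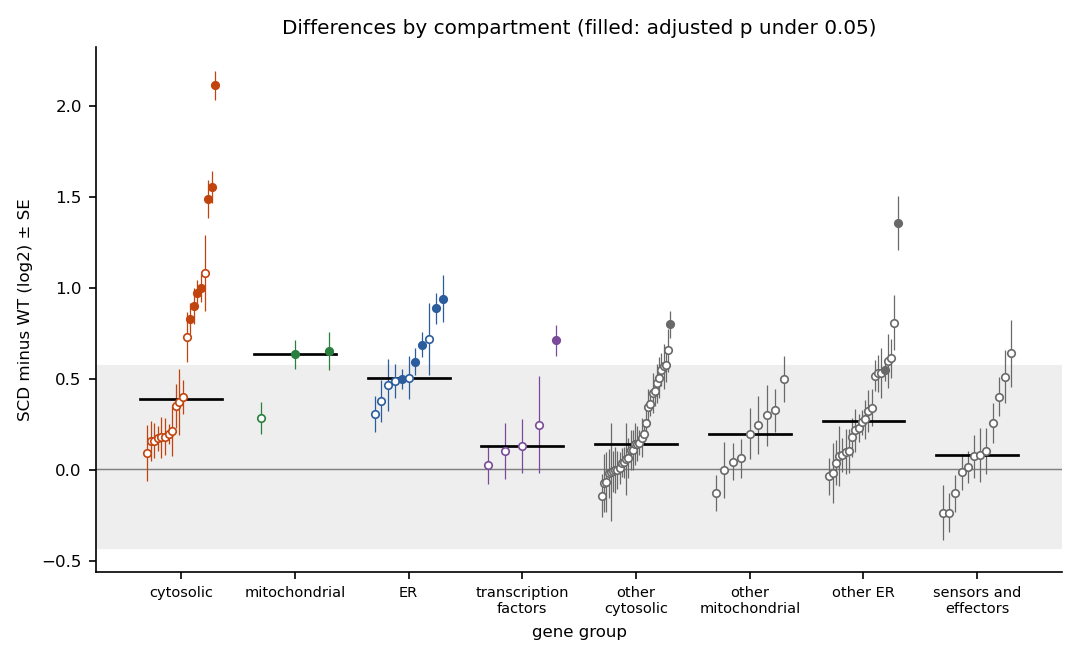
The vertical axis gives the SCD minus WT difference on the log2 scale ± SE for each gene, ordered by size within its group; coloured points are the genes of the 44 that were measured and grey points are the other chaperone and stress genes. Filled points passed the test, black bars are group medians (0.39 for cytosolic, 0.64 for mitochondrial, 0.51 for ER genes and 0.13 for transcription factors), and the shaded band spans the 5th to the 95th percentile of all genes, from -0.43 to 0.57.

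Most of the genes sat on bright probe sets, and calls were more frequent there. Of the 39 genes, 31 were among the 7675 genes with the highest mean level of the 30701, and 14 of these rose, against 7.17% of the 7675. Of the 8 outside these 7675, 1 rose, which was Hspb1, against 204 of all 23026 genes outside them. Of the 7675 bright genes, 61.6% had a difference above 0, and both SCD arrays lay above both WT arrays for 40.0%. The WT means of Hspa1a, Hspa2, Hspb6 and Atf3 lay below the WT negative control median, and none of these 4 passed.

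**Figure D4:**
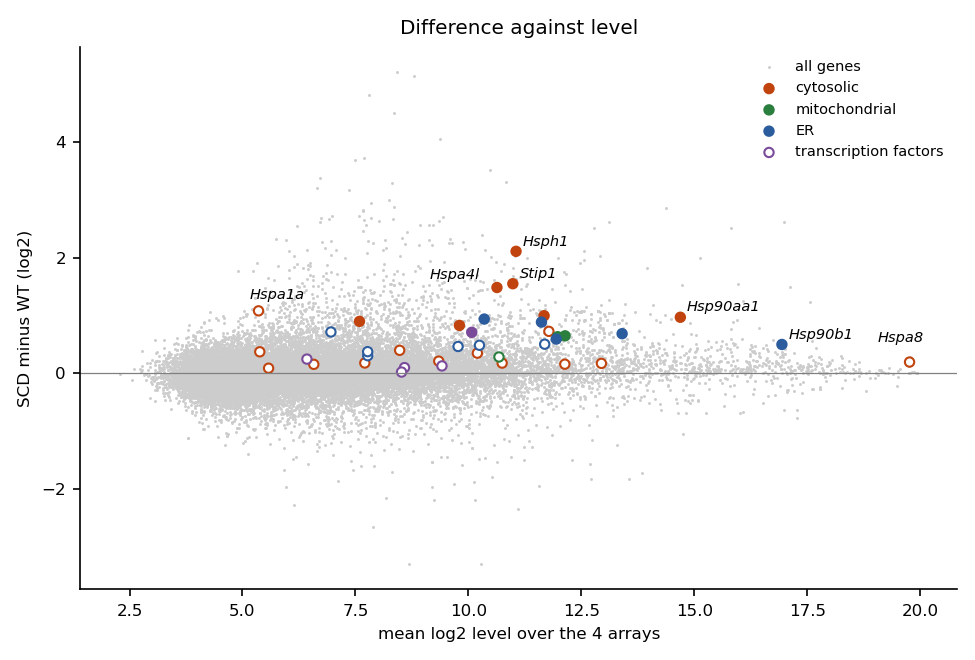
The horizontal axis is the mean log2 level over the 4 arrays and the vertical axis the SCD minus WT difference on the log2 scale; small grey points are all genes, large points the 39 measured genes by compartment, filled where the test was passed. Hsph1, Stip1 and Hspa4l stand highest among the filled points, and Hspa8 lies at the right edge, near the top of the table's range.

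Several of these genes have processed copies elsewhere in the genome, so that probe sets can be read by more than 1 transcript. Probe sets that the annotation shares between Hsp90aa1 and the predicted genes Gm12346 or Gm5844 differed by 1.76 ± 0.09 and 1.92 ± 0.11, against 0.97 ± 0.06 for the probe set of Hsp90aa1 alone (limma over every transcript cluster, adjusted p = 0.0112, 0.0142 and 0.017). The direction was the same and the size differed. The probe set used for Hspa8 is named for a cluster on chromosome 6, whereas RefSeq places the gene on chromosome 9. A probe set shared by Hspa8 and small nucleolar RNA genes, named for a cluster on chromosome 9, read 11.89 and 11.95 on the SCD arrays, against 11.50 and 11.46 on the WT arrays. Its difference of 0.44 ± 0.09 did not pass (adjusted p = 0.119), whereas a probe set shared by Hspa8 and Gm15459 differed by 1.14 ± 0.05 and did pass (limma over every transcript cluster, adjusted p = 0.00932). The 3 further probe sets annotated to Hspa8 alone differed by 0.26, 0.31 and 0.27 and did not pass, close to the 0.20 of the one used. They are named for clusters on chromosomes 1 and 14. Like the one used, they read close to the upper end of the table's range, from 19.45 to 19.91, where differences have little room.

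Markers of other cell types also differed between the groups, and their part in the results was not tested. Neutrophil markers rose in 7 of 10 cases, with summed log2 levels of 98.54 and 99.20 on the SCD arrays and of 83.59 and 85.84 on the WT arrays. Ciliated cell markers rose in 6 of 9 cases (sums 78.52 and 77.91 on the SCD arrays, 69.46 and 69.73 on the WT arrays). Of 9 heart muscle markers, 2 rose, Nppa by 2.88 ± 0.13 and Myl7 by 1.20 ± 0.10, whereas Myh6 differed by 0.13; the sums were 83.74 and 83.84 on the SCD arrays and 77.48 and 77.09 on the WT arrays.

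Plasma cells, which secrete antibody and depend on XBP1, had 2 of 8 markers higher, Jchain by 3.30 ± 0.11 and Xbp1 itself, which is one of the 44 genes. Their sums were 58.36 and 58.11 on the SCD arrays and 52.90 and 53.38 on the WT arrays, and Mzb1, a further plasma cell marker, differed by 0.33 ± 0.14 without passing. The WT mean lay below the negative control median for 4 of the 8 plasma cell markers, 4 of the 10 neutrophil markers, 2 of the 9 ciliated cell markers, 4 of the 6 red cell precursor markers and 4 of the 8 cold-inducible and immediate early genes, Slc4a1 and Fos among them. Red cell precursor markers rose in 2 of 6 cases, with sums of 43.63 and 44.35 on the SCD arrays and of 38.97 and 39.11 on the WT arrays. Smooth muscle markers rose in 1 of 6 cases, with sums of 52.93 on both SCD arrays and of 50.46 and 51.90 on the WT arrays.

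Of 8 alveolar epithelial markers, 0 passed limma's test and 1 had an unadjusted p under 0.05 (sums 110.86 and 110.90 on the SCD arrays, 109.76 and 110.85 on the WT arrays). Of 6 endothelial markers, Cdh5 fell by 0.47 ± 0.08 (limma, adjusted p = 0.0491) and 5 did not pass, among them Tie1 at -0.60 and Cldn5 at 0.65. At an unadjusted p under 0.05, 1 endothelial marker was higher and 3 were lower, with sums of 65.57 and 65.89 on the SCD arrays and of 65.94 and 67.01 on the WT arrays. None of 8 measured cold-inducible and immediate early genes, read as a sign of handling, passed limma's test, and 3 had an unadjusted p under 0.05, namely 1 higher and 2 lower; their part in the results was not tested either. Cirbp, an RNA-binding protein gene induced by mild cold, read 6.60 and 6.73 on the SCD arrays, against 7.33 and 7.30 on the WT arrays, with a difference of -0.65 ± 0.11 (limma, adjusted p = 0.0539). Rbm3, its relative, read 9.20 on both SCD arrays, against 9.74 and 9.64 on the WT arrays, with a difference of -0.49 ± 0.09 (limma, adjusted p = 0.0744). Both SCD arrays were below both WT arrays for these 2 genes. The immediate early genes Fos and Jun, which did not pass, differed by 0.43 ± 0.14 and -0.38 ± 0.16.

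With 2 arrays in each group the calls rest on each array. Without SCD array 1 or without SCD array 2, limma called 0 of the 39 genes and 0 of all genes, with 18 and 20 of the 39 at an unadjusted p under 0.05 (over all genes, 2166 and 2131 higher and 1136 lower in each case). Without WT array 1 it called 8 and without WT array 2 it called 12. The split of calls over all genes, 754 higher and 195 lower, was 524 and 573 when the shift of the positive controls was taken off the SCD arrays and 621 and 343 after repeated quantile normalization. Taking off that shift moved the median of all genes down by that shift, and 10 of the 39 genes were still called higher and 0 lower, among them all 7 cytosolic genes named above.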

How the data were processed

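The deposited table holds 1 log2 value per probe set and array for 72688 probe sets on 4 arrays; the log2 scale was read from the values, which run from 1.72 to 19.93. TRIzol was used for the total RNA and a 3' in vitro transcription kit for the biotin label, per the labels' protocols. Per the submitters' processing notes, the authors used Affymetrix Expression Console, Partek and RMA, with no version, role or order given. The number of arrays limits the precision.

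Groups were taken from the sample titles. Of 65956 transcript clusters, 31258 were annotated to 1 gene, 1492 to several and 33206 to none. For each gene the brightest probe set by mean over the 4 arrays was kept, leaving 30701 genes (442 had a choice of probe sets). RefSeq's table (GRCm38.p6) held 30699 of the symbols. The groups were compared in R 4.3.3 with limma 3.58.1 (lmFit, and eBayes with an intensity trend, group as the only term), two-sided, with Benjamini-Hochberg adjustment over all genes and a threshold of 0.05. Probe sets of several genes and further probe sets were taken from the same fit over every transcript cluster, added after seeing the data. Motifs were searched in RefSeq promoter windows. The fit was tested on simulated data.

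Every member could be named, along with the genes past the threshold and up to 4 with the smallest p in each subgroup of the other pathway genes. Genes named outside that rule were picked with their values known. The members and lists were chosen with earlier results of these data known. Alternatives were a replicate block, leaving out the intensity trend, leaving out the dimmest 25% of genes, averaging the probe sets of a gene, quantile normalization, the positive control shift taken off SCD, and each array left out.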

Additional observations from a re-analysis of the deposited data

How the results depend on the processing

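All 15 genes that rose kept the sign of their difference under every setting, and 9 of them (Hsph1, Hspa4l, Hsp90aa1, Chordc1, Stip1, Ahsa1, Hspb1, Hspa5 and Xbp1) passed in all 6 planned settings that keep the 4 arrays, although Ahsa1, Hspb1 and Xbp1 missed the threshold in the fit over every transcript cluster (limma, adjusted p = 0.0503, 0.0582 and 0.0643). The causes of the changes below were not tested. Leaving an array out also leaves fewer arrays in the fit, and fitting every transcript cluster brings in more features. Members called higher numbered 15, against 9 without the intensity trend, 8 in the fit over every transcript cluster, which was added after seeing the data, and 0 to 12 with an array left out. Cytosolic members called numbered 7, and 0 to 7 with an array left out. Mitochondrial members called numbered 2, against 1 with the replicate block, 0 without the trend, 0 after quantile normalization, 0 with the control shift taken off, 0 over every transcript cluster, and 0 to 1 with an array left out. ER members called numbered 5, against 1 without the trend, 2 after quantile normalization, 2 with the control shift taken off, 3 over every transcript cluster, and 0 to 4 with an array left out. Other pathway genes called numbered 3, against 7 with the dimmest 25% left out and 0 to 4 with an array left out.

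Over all genes, 754 were called higher and 0 to 643 with an array left out, and 195 were called lower, against 114 without the trend, 343 after quantile normalization, 573 with the control shift taken off, and 0 to 143 with an array left out. The cytosolic median of 0.39 was 0.19 with the control shift taken off and 0.31 to 0.55 with an array left out. The mitochondrial median of 0.64 was 0.48 after quantile normalization, 0.44 with the shift taken off and 0.54 to 0.64 with an array left out. The ER median of 0.51 was 0.41 after quantile normalization, 0.31 with the shift taken off and 0.45 to 0.64 with an array left out.

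Differences that turned below 0 were all of members that had not passed. After quantile normalization these were Hspa4 (-0.23), Cryab (-0.0031), Hsf2 (-0.0015) and Atf4 (-0.0815). With the control shift taken off they were Hspa4 (-0.0221), Ppid (-0.0169), Dnajb1 (-0.0384), Dnajb4 (-0.0152), Hspb6 (-0.11), Cryab (-0.0358), Hsf2 (-0.10), Atf4 (-0.17) and Ddit3 (-0.0658). With an array left out, the difference ran from -0.085 to 0.2664 for Hspb6, from -0.0599 to 0.262 for Hsf2, from -0.0351 to 0.0833 for Atf4, from -0.0353 to 0.2959 for Ddit3 and from -0.15 to 0.64 for Atf3. The SCD and WT arrays share replicate numbers, but the deviations of same-numbered arrays did not go together (Pearson r over genes -0.0022, 2 pairs), so that the numbers are not shown to pair the arrays. With the replicate block, 14 members were called, Hspe1 being lost (limma, adjusted p = 0.0579), and 775 genes were called higher and 193 lower.

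Without WT array 1, Ahsa1, Hspb1, Hspd1, Hspe1, Calr, Herpud1 and Xbp1 lost their calls, and without WT array 2, Hspb1, Hspd1, Calr and Xbp1 lost theirs while Cacybp passed. Probe sets near the top of the table's range or below the negative controls carry little information on size.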
